A study of Mus musculus with 6 samples.

Results

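Genes for calcium binding and calcium transport were followed through 6 libraries of mouse uterus and blastocysts. The set held 10 of the 23420 genes in the count tables and was chosen by name: the channel gene *Trpv6*, the calbindin genes *Calb1* and *S100g*, the pump genes *Atp2b1* and *Atp2b4*, and the S100 genes *S100a6*, *S100a8*, *S100a9*, *S100a10* and *S100a11*. The study asked what leukemia inhibitory factor (Lif), a cytokine needed for implantation, does when it is missing from the uterine epithelium, and what returns when recombinant Lif (rLif) is injected. RNA came from the laser-microdissected luminal layer, the epithelium that lines the uterine lumen, and from blastocysts flushed from the horns on day 4 of pregnancy at 8 pm, ahead of attachment. The luminal groups were Lif-floxed/floxed females given PBS (control), Lif-floxed/floxed Ltf-Cre/+ females given PBS (*Lif* eKO), and females of the same eKO genotype given 20 µg of rLif per head by injection at 10 am and again at 6 pm, 2 h before dissection. The blastocysts came from uteri of these same 3 kinds, and their own genotype was given as Lif-floxed/+ in every group. The *Ltf* driver acts in the uterine epithelium, so the stroma of eKO females kept the floxed allele. Each group was 1 library of pooled RNA or pooled blastocysts. There were therefore no replicates, animals could not be compared with each other, and p-values are left out.

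Epithelia that move calcium across the cell use a route of several steps. The channel Trpv6 lets calcium in at the apical membrane, the calbindins (Calb1, also called calbindin-D28k, and S100g, also called calbindin-D9k) bind it in the cytosol, and the plasma membrane calcium ATPases of the Atp2b family pump it out. In the uterus the calbindins are known as genes under the control of ovarian steroids. The S100 proteins are small EF-hand proteins: S100a10 is the partner of annexin A2, and S100a8 and S100a9 together form calprotectin, which is abundant in neutrophils.

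Sequence before the gene start is shown for 2 members: *Trpv6*, the entry channel, whose luminal counts differed widely, and *S100g*, the most abundant member in the luminal layer. The windows are the 250 bases before the annotated start, 5′ to 3′ on the gene's strand, from RefSeq on GRCm38.p6, where 8 of the 10 members had an entry (*Calb1* and *S100a10* had none). Capitals mark matches on either strand to the Stat element TTCNNNGAA, the progesterone and glucocorticoid receptor half-site AGAACA, and the vitamin D and estrogen type half-site AGGTCA, which appears as TGACCT when on the other strand. *Trpv6* (chr6:41636406-41636655, minus strand) and *S100g* (chrX:162964600-162964849, minus strand) read as follows.
Trpv6: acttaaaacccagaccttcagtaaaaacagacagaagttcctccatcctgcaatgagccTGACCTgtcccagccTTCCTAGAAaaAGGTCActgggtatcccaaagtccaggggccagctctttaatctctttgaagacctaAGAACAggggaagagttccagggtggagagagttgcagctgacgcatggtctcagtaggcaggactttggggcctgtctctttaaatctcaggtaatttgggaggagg
S100g: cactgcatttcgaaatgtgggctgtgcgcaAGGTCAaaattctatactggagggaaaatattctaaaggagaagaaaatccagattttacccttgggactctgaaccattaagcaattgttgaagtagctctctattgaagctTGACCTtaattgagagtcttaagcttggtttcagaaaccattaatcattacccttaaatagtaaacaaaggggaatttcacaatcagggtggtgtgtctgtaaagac

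The *Trpv6* window held the Stat element TTCCTAGAA at 176 bases before the start, an AGAACA at 108 bases, and AGGTCA matches at 165 and 191 bases. The *S100g* window held AGGTCA matches at 220 and 107 bases. The window listed for *Atp2b4* lies inside the longer GENCODE M21 gene of that name and is not described. Of the other members with an entry, *S100a6* held an AGAACA at 205 bases, *S100a11* a TGACCT at 243 bases, and *Atp2b1*, *S100a8* and *S100a9* held none of the 3 motifs. Among all 32851 windows of this length, 7.02% held the Stat element, 16.08% AGAACA and 14.02% AGGTCA. The motifs did not overlap each other in these windows. Such short motifs are common, and a match is a stretch of letters, not a shown binding site.

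Total counts were 23850565 to 28460465 in the luminal libraries and 18996158 to 19638852 in the blastocyst libraries. All 10 members had at least 10 counts over the 3 libraries of each tissue, as did 15694 genes in the luminal layer and 14873 in blastocysts. The targeted gene was read first. *Lif* (chromosome 11, 4257568 to 4272514) was read 0, 28 and 0 times in the luminal libraries that carry the labels control, eKO and eKO with rLif. The only reads thus lay in the library labelled eKO, where the epithelium was to lose the gene. Whole-gene counts also include exons outside the floxed part. The paper places Lif in the uterine glands before attachment and in the stroma around attached embryos. With 0 counts in control, the luminal labels could not be checked by this gene, and the source of the 28 counts was not tested. Luminal libraries are accordingly called by their labels, and every luminal direction given here rests on those labels. From here on, 3 values in a row follow that order of groups. Blastocyst counts of *Lif* were 1447, 1736 and 1250. The luminal libraries held the epithelial markers *Wnt7a* (2916, 2968 and 4338 counts) and *Lpar3* (8033, 14589 and 6327), while 1, 2 and 0 of 5 inner cell mass markers had counts there, with *Pou5f1* and *Nanog* at 0 and *Sox2* at 8, 19 and 0 counts. The stroma list (8 of 8 markers with counts) summed to 726, 1140 and 780 CPM (counts scaled to a common library size) in the luminal layer, and the smooth muscle list (6 of 6) to 70.4, 50.5 and 31.4 CPM. In bulk samples such as these, fewer cells of a type and less RNA per cell cannot be told apart.

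Levels are given as counts and as CPM, scaled within a tissue, and levels of different genes are compared only as CPM per kilobase of exon. A ratio is the log2 of 2 libraries' CPM with its exact 95% Clopper-Pearson interval in brackets. A gene was called higher or lower when that interval lay wholly beyond a log2 ratio of 1, the study's fold limit. These intervals cover counting error only, so a call compares 2 libraries, not 2 conditions. The 3 comparisons in a tissue share libraries with each other and are not independent.

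The entry channel differed widely between the luminal libraries. *Trpv6* (chromosome 6, 41620619 to 41636405, minus strand) had 7248, 765 and 14117 luminal counts, or 287, 26.6 and 542 CPM. The library labelled eKO was thus far below both others, and that with rLif was the highest. The log2 ratio of eKO to control was -3.43 (-3.54 to -3.32), a 10.8-fold lower level, and that of eKO with rLif to eKO was 4.35 (4.24 to 4.45), a 20.4-fold higher level. Against the library labelled control, the one with rLif stood at 0.92 (0.88 to 0.96), which was not called. In blastocysts *Trpv6* had 55, 49 and 85 counts, and no pair was called.

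The channel's closest relative behaved differently between tissues. *Trpv5* encodes the other calcium-selective channel of the family, known from the kidney. Its luminal counts were 58, 30 and 164. The rLif library was called higher than eKO (2.59, 2.02 to 3.20) and higher than control (1.46, 1.01 to 1.91), and the eKO library was not called lower than control. In blastocysts *Trpv5* had 3349, 3763 and 1987 counts. Per kilobase the ratio of *Trpv6* to *Trpv5* was 111, 22.6 and 76.4 in the 3 luminal libraries and 0.0146, 0.0116 and 0.0380 in the 3 blastocyst libraries. *Trpv6* was therefore the more abundant channel transcript in every luminal library, and *Trpv5* in every blastocyst library. Of the other Trpv genes, *Trpv2* had 29, 66 and 3 luminal counts, *Trpv4* had 117, 184 and 78, and *Trpv3* had 5, 0 and 11.

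**Figure D1:**
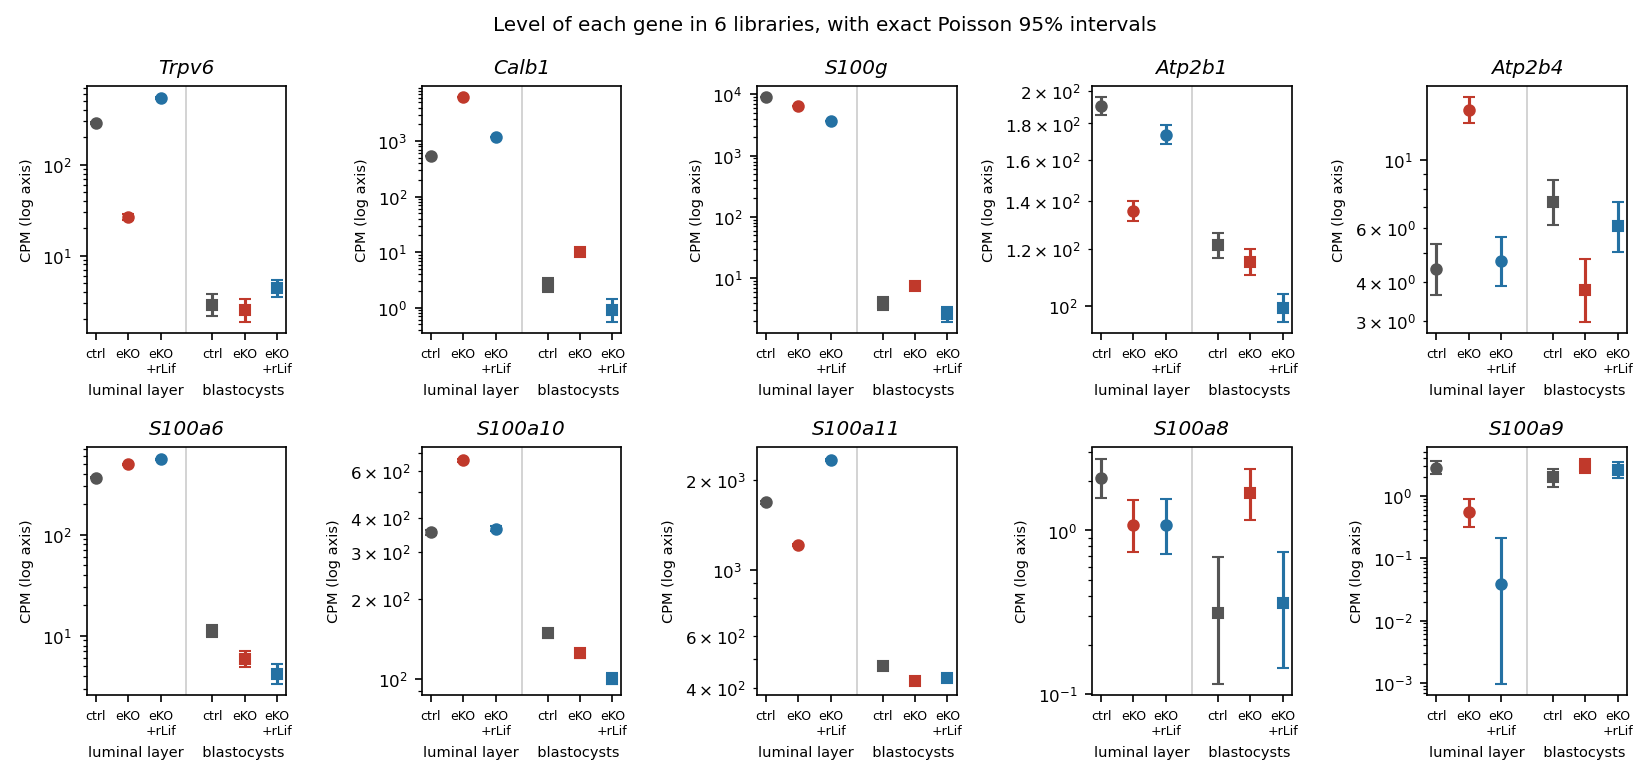
Level of each of the 10 genes (CPM, log axis, a different range in each panel) in the 3 luminal libraries (circles) and the 3 blastocyst libraries (squares), with ctrl for control. Bars are exact Poisson 95% intervals and cover counting error only. *Trpv6* falls to 26.6 CPM in the library labelled eKO while *Calb1* reaches 6109 CPM there.

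The calbindins, which bind calcium in the cytosol, moved apart from each other. *Calb1* (chromosome 4, 15881264 to 15906709, plus strand) reached 6109 CPM in the luminal library labelled eKO, against 538 CPM in control and 1184 CPM with rLif. Its log2 ratio of eKO with rLif to eKO was -2.37 (-2.39 to -2.35), and that of eKO to control was 3.51 (3.48 to 3.53). With rLif it was still above the library labelled control by 1.14 (1.11 to 1.17), a call that was lost when libraries were scaled by their totals (0.96). *S100g* (chromosome X, 162961992 to 162964599, minus strand) had 226229, 184121 and 96232 luminal counts, or 8961, 6411 and 3696 CPM. It thus took the highest level in the library labelled control and the lowest in the one with rLif. The ratio of rLif to control was called lower at -1.28 (-1.29 to -1.27), while eKO to control (-0.48) and rLif to eKO (-0.79) were not called. The smooth muscle marker sum stood in the same order of libraries as *S100g*. So did the sums of the leukocyte list (844, 718 and 686 CPM) and of the neutrophil list without *Il1b* (2.46, 1.84 and 1.42 CPM). The part of these cells in the *S100g* result was not tested.

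*S100g* was nevertheless among the most abundant transcripts of the luminal layer. By CPM per kilobase it ranked 1, 3 and 4, with 18670, 13360 and 7700 CPM per kilobase. *Calb1* ranked 557, 23 and 291 by the same measure. The level of *Calb1* relative to *S100g* per kilobase was 0.0101, 0.160 and 0.0536 in these libraries. The D9k gene therefore had the more abundant transcript in all 3, and the summed level of both genes was 18860, 15490 and 8113 CPM per kilobase. *Calb2*, the calretinin gene, had 0 counts in every luminal library, which allows up to 3 counts in each.

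Blastocysts held few calbindin reads. *Calb1* had 49, 201 and 18 counts there, and *S100g* had 74, 146 and 50. Both were highest in blastocysts from the eKO uterus and lowest in those from the rLif-treated uterus. The *Calb1* ratio was 2.00 (1.54 to 2.48) for eKO to control and -3.47 (-4.26 to -2.78) for eKO with rLif to eKO, and the *S100g* ratio was -1.54 (-2.03 to -1.06) for the latter. For *S100g* in eKO against control the ratio was 0.94 (0.53 to 1.37), which was not called. The leukocyte list (9 of 9 markers with counts in each blastocyst library) stood in the same order, summing to 63.7, 129 and 23.2 CPM, with *Lyz2* at 976, 2128 and 289 counts. The uterine epithelial marker *Wnt7a* was at 0 in all 3 blastocyst libraries, and *Lpar3* had 12, 27 and 26 counts. The part of other cells in these low calbindin counts was not tested.

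The pumps that export calcium differed among themselves. *Atp2b1* (chromosome 10, 98915152 to 99026143, plus strand), the pump found in most tissues, had 4809, 3898 and 4523 luminal counts, and no pair was called. *Atp2b4* (chromosome 1, 133702674 to 133753747, minus strand) had 112, 415 and 122. The library labelled eKO thus stood apart, with a ratio of 1.70 (1.40 to 2.02) to control, and eKO with rLif to eKO was at -1.62 (-1.93 to -1.33). A microRNA gene that GENCODE M21 annotates on the same strand, *Mir6903*, overlaps exons of *Atp2b4*, so its counts are uncertain to that extent. The paralog *Atp2b2*, which was no member, had 990, 6154 and 1275 luminal counts, with ratios of 2.45 (2.35 to 2.55) and -2.13 (-2.22 to -2.04) in the same comparisons.

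Per kilobase, *Atp2b1* made up 81.7%, 37.7% and 76.8% of the summed Atp2b level in the luminal libraries. *Atp2b2* made up 16.6%, 58.8% and 21.4%. The most abundant pump transcript was thus *Atp2b2* in the library labelled eKO and *Atp2b1* in both others. In blastocysts *Atp2b1* made up 92.2%, 95.6% and 93.6%, with 2316, 2248 and 1927 counts. *Atp2b4* had 139, 74 and 118 counts there, and neither pump gene was called in any blastocyst comparison. The stroma sum was also highest in the luminal library labelled eKO, as were *Calb1*, *Atp2b4* and *Atp2b2*. So were the sums of the luminal epithelium (4934, 6709 and 5060 CPM), endothelium (41.0, 59.5 and 56.8) and red cell (45.5, 60.3 and 40.9) lists. Those of the glandular, smooth muscle, neutrophil and leukocyte lists were not. The part of these cells in the results was not tested.

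**Figure D2:**
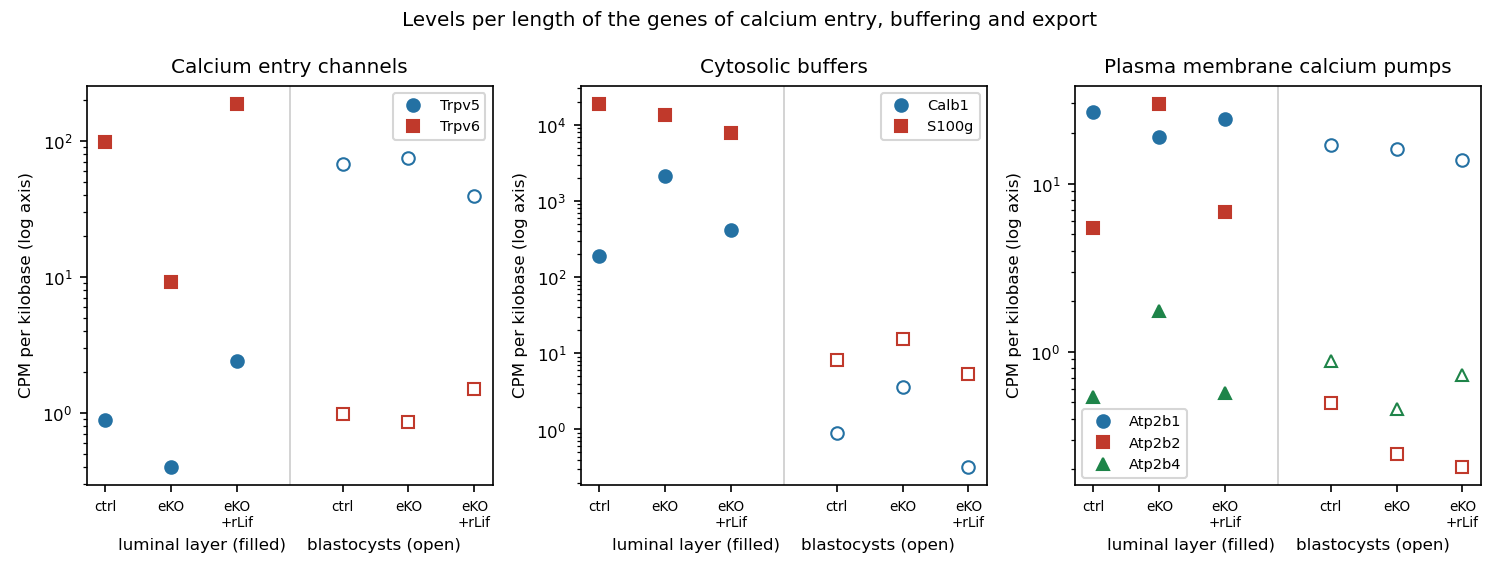
Levels per length (CPM per kilobase of exon, log axis) of the channel genes, the calbindins and 3 pump genes in the luminal libraries (filled) and blastocyst libraries (open), with ctrl for control and 1 library per point. *Trpv6* lies above *Trpv5* in the luminal layer and below it in blastocysts, and *Atp2b2* exceeds *Atp2b1* in the library labelled eKO alone.

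The members *S100a6*, *S100a10* and *S100a11* differed by less than the fold limit between luminal libraries. *S100a10* (chromosome 3, 93555117 to 93564645, plus strand) had 8956, 18930 and 9534 luminal counts. The library labelled eKO was the highest, at 0.89 (0.86 to 0.93) over control, and rLif to eKO was -0.85 (-0.88 to -0.81). *S100a11* (chromosome 3, 93520496 to 93526288, plus strand), an S100 protein that binds annexin A1, had 42570, 34808 and 61092 counts and ran the other way, with rLif to eKO at 0.95 (0.93 to 0.97). *S100a6* (chromosome 3, 90612894 to 90614414, plus strand), also called calcyclin, had 9231, 14163 and 14364. No luminal pair of these 3 genes was called.

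In blastocysts *S100a11* had 9051, 8249 and 8425 counts and ranked 32, 39 and 36 by CPM per kilobase. It was the most abundant member there in each library. *S100a10* had 2829, 2437 and 1952 counts, with no call. *S100a6* had 212, 115 and 82 counts, and the ratio of eKO with rLif to control was called lower at -1.40 (-1.78 to -1.02). Most stromal markers were also highest in control: the list summed to 155, 159 and 151 CPM, most of it *Pdgfra* (2354, 2845 and 2718 counts), and its other 7 genes summed to 31.9, 13.7 and 11.5 CPM, with *Dcn* at 164, 84 and 51 counts. The epithelial keratin gene *Krt19* had 1401, 241 and 108 counts. The part of other cells in the *S100a6* call was not tested.

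The calprotectin genes were at low counts throughout. *S100a8* (chromosome 3, 90669071 to 90670034, plus strand) had 53, 31 and 28 luminal counts and 6, 33 and 7 blastocyst counts. *S100a9* (chromosome 3, 90692633 to 90695691, minus strand) had 72, 16 and 1 luminal counts and 38, 60 and 51 blastocyst counts. The 2 genes of the pair were thus not proportional to each other from library to library. In the luminal layer *S100a9* was called lower in eKO than in control at -2.36 (-3.24 to -1.56). The ratio of rLif to control was -6.21, with the wide interval of -11.54 to -3.69 that 1 count gives. In blastocysts *S100a8* was called in eKO against control at 2.42 (1.15 to 3.97) and in eKO with rLif against eKO at -2.23 (-3.65 to -1.03).

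Neutrophil markers were few in the luminal layer. The list had 5, 4 and 7 of 11 found markers with counts and summed to 7.92, 5.50 and 18.1 CPM, most of it *Il1b* (138, 105 and 434 counts), which other cells also express. Without *Il1b* the other 10 markers summed to 62, 53 and 37 counts, or 2.46, 1.84 and 1.42 CPM, the order in which *S100a9* stood, with *Csf3r* at 48, 49 and 29 counts. Their part in the *S100a9* result was not tested. *Ngp*, a defining neutrophil granule gene, was at 0 in all 3. In blastocysts the list summed to 192, 237 and 275 CPM, most of it from *Csf3r* (3357, 4234 and 5162 counts), with *Ngp* at 0 again. *Il1b* had 32, 222 and 12 counts in blastocysts and, like *S100a8*, was highest in those from the eKO uterus. The order of the other libraries differed between these genes.

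Counts over the members were set beside those over all genes tested. For the luminal library labelled eKO against control, 2 of the 10 members were called higher and 2 lower, where 8.08% of all genes were called higher and 9.15% lower. The median log2 ratio was -0.48 over the members and 0.00 over all genes. For eKO with rLif against control, 1 member was called higher and 2 lower (all genes 4.12% and 5.04%), with medians of 0.06 and 0.01. For eKO with rLif against eKO, 1 member was called higher and 3 lower (all genes 7.88% and 7.77%), with medians of -0.40 and 0.00. *Trpv6*, *Calb1*, *Atp2b4* and *S100a9* were the called members in both comparisons with the library labelled eKO. Members were called in both directions in each of these.

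In blastocysts, eKO against control gave 2 members higher and 0 lower, where 1.29% and 1.86% of all genes were called, with a member median of -0.12. The comparison of eKO with rLif to control gave 0 higher and 1 lower (all genes 0.948% and 3.99%; member median -0.28). That of eKO with rLif to eKO gave 0 higher and 3 lower (all genes 0.914% and 2.83%; member median -0.27). The called members were *Calb1*, *S100g*, *S100a8* and *S100a6*, each at no more than 212 counts in any blastocyst library.

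**Figure D3:**
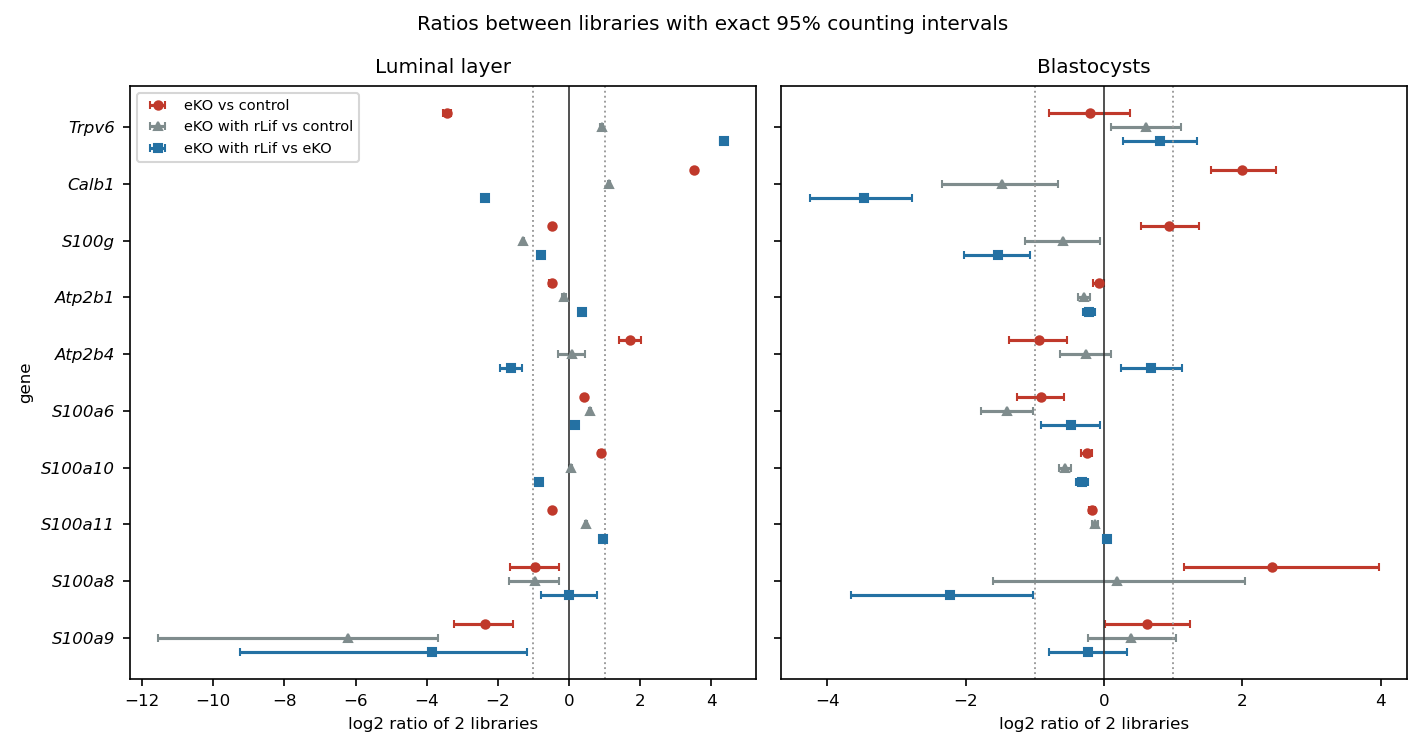
Log2 ratios between pairs of libraries for each gene in the luminal layer (left) and blastocysts (right, a different axis range). Bars are exact 95% counting intervals, dotted lines mark a log2 ratio of 1 in either direction, and a gene was called when its bar lay wholly outside them. In the luminal layer *Trpv6* lies at -3.43 for eKO to control and 4.35 for eKO with rLif to eKO, opposite in sign to *Calb1*.

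The same genes were compared between the tissues, control with control, eKO with eKO and rLif with rLif, over the 17081 genes with at least 10 counts in all 6 libraries together. The luminal library was called higher for 7 members and lower for 0 in control (all genes 27.0% and 25.1%), higher for 7 and lower for 1 in eKO (28.8% and 28.0%), and higher for 6 and lower for 1 with rLif (29.3% and 26.3%). *S100g* differed most in control, by 11.32 (10.99 to 11.67), followed by *Calb1* at 7.86 and *Trpv6* at 6.79. *S100a6* was at 5.19, *S100a8* at 2.89, *S100a11* at 1.98 and *S100a10* at 1.41. The pumps *Atp2b1* (0.80) and *Atp2b4* (-0.57) were not called, nor was *S100a9* (0.67). In eKO and with rLif *S100a9* was the member called lower in the luminal library, and *Atp2b4* was called higher in the luminal library labelled eKO at 2.05 (1.69 to 2.42). The tables of the 2 tissues were made separately, so these ratios also hold any difference in collection and handling.

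A wider list of 102 genes in 11 calcium-related groups by role was counted in the same way. The members were among them, as was the transcription factor gene *Klf9*. In the luminal layer 87 were tested. For eKO against control 15 were called higher and 13 lower, with a median of 0.18. For eKO with rLif against control the counts were 5 and 6 (median 0.05), and for eKO with rLif against eKO they were 9 and 14 (median -0.17). Called genes were thus 12.6% of the list in the former, against 9.16% of all genes, and 26.4% in the latter, against 15.7%. The list had called genes in both directions in each comparison. The 28 genes called between the libraries labelled eKO and control were 32.2% of those tested, against 17.2% of all genes. Without the members the share was 31.2% (24 of 77). The list was chosen with earlier results of these data known, so these shares are a description only.

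The annexins, several of which bind S100 proteins, gave calls in 6 of 11 genes tested between eKO and control, 3 in each direction, where 17.2% of all genes were called. *Anxa2*, the partner of S100a10, had 4469, 13818 and 5496 luminal counts. Its ratio of eKO to control was called higher at 1.44 (1.39 to 1.49), and that of rLif to eKO lower at -1.19 (-1.23 to -1.14). The library labelled eKO thus held the most *Anxa2* and the most *S100a10*. *Anxa1* was called higher in eKO at 1.33 and *Anxa3* lower at -1.81. *Anxa8* (752, 131 and 519 counts) was called lower in eKO at -2.71 and higher with rLif against eKO at 2.13. *Anxa7* (3812, 2016 and 5756) was likewise called higher with rLif against eKO at 1.65.

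Other S100 genes of the cluster on chromosome 3 had calls of their own. *S100a1*, a regulator of calcium handling in muscle, had 2310, 6261 and 4789 luminal counts and was called higher in eKO than in control at 1.25 (1.18 to 1.32). *S100a13* had 381, 1147 and 915, with calls of 1.40 for eKO and 1.22 for rLif, both against control. *S100a16* had 2870, 6869 and 4237, with a call of 1.07 for eKO against control. These neighbours, *S100a4* (0.30), *S100a6* (0.43) and *S100a10* lay above control in the library labelled eKO, while *S100a8* (-0.96), *S100a9* and *S100a11* lay below it. The intervals of *S100a3*, *S100a7a* and *S100a14* spanned 0. Over the S100 family, 3 of 14 tested genes were called higher and 1 lower in eKO, or 28.6% against 17.2% of all genes. *S100g*, on chromosome X, made up 79.8%, 73.6% and 54.1% of the summed S100 level per kilobase in the luminal libraries.

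**Figure D4:**
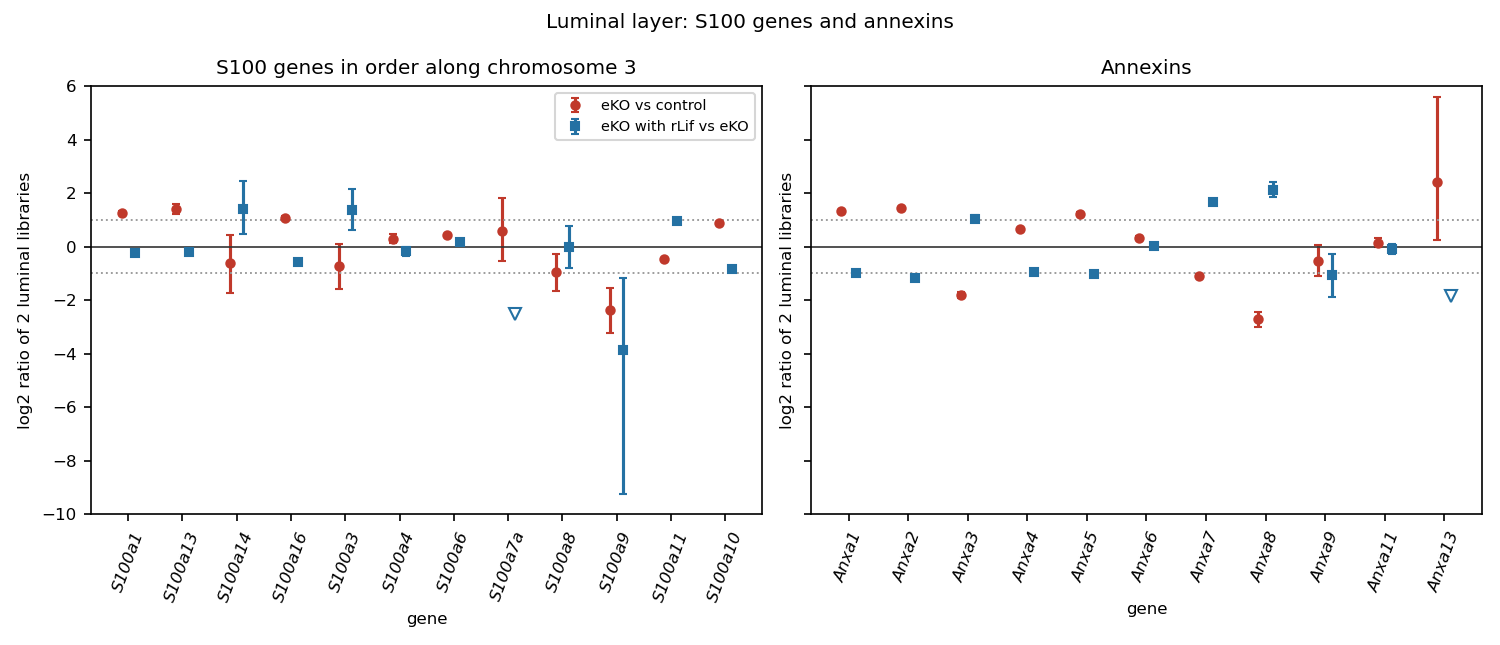
Log2 ratios of luminal libraries for the S100 genes of chromosome 3 with at least 10 luminal counts, in chromosome order (left), and for the annexins (right). Circles are eKO to control, squares are eKO with rLif to eKO, bars are exact 95% counting intervals, and open triangles are bounds for genes with 0 counts in the library with rLif. *Anxa2* lies at 1.44 and -1.19, and the 2 ratios of a gene share the library labelled eKO.

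Among the exchangers, which swap sodium for calcium, 4 of 6 tested genes were called between eKO and control, where 17.2% of all genes were called. *Slc8a1* (506, 145 and 149 counts) was called lower in both eKO libraries, at -1.99 and -1.81 against control. *Slc24a4* (8, 248 and 37 counts) was called higher in eKO at 4.77 (3.77 to 6.00), and *Slc24a6*, now named *Slc8b1* (472, 119 and 231) lower at -2.17. *Slc8a3* had 11 counts in control and 0 in eKO, at least 4.17-fold lower, and was also called. Of the exchangers, 1 was thus called higher and 3 lower in eKO. Of the store-operated entry and release channels, 2 of 11 tested genes were called between eKO and control (18.2%). Of the mitochondrial uptake genes 1 of 7 was called (14.3%), so both shares were near the 17.2% of all genes. The release channel gene *Ryr2* had 0, 39 and 4 counts, which put the library labelled eKO at least 11.4-fold higher than control. *Ccdc109b*, also called *Mcub*, which encodes the subunit that restrains the mitochondrial uniporter, had 1478, 519 and 2205 counts. It was called lower in eKO at -1.70 and higher with rLif against eKO at 2.23, the order seen for *Trpv6*.

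Hormone and vitamin D genes were also counted. *Pthlh*, the gene of parathyroid hormone-related protein, had 19, 134 and 222 luminal counts and was called higher against control in eKO (2.63, 1.93 to 3.41) and with rLif (3.50, 2.82 to 4.26). *Calca*, which encodes calcitonin and CGRP, had 10, 78 and 40, and *Ramp1*, a subunit of the CGRP receptor, had 525, 1462 and 487. Both were called higher in eKO than in control. *Klf9* (1823 counts in control and 859 in eKO), counted in the same list, was called lower in eKO at -1.27 (-1.39 to -1.15). Of the 7 genes tested, 3 were thus called higher and 1 lower in eKO, where 17.2% of all genes were called. The vitamin D receptor gene *Vdr* had 2, 14 and 0 luminal counts and *Cyp24a1*, a standard target of that receptor, had 0 in all 6 libraries, which allows up to 3 counts in each.

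The genes whose levels ran most like each member's were found by distance over the 6 libraries, on log2(CPM + 2) centred within each tissue, among 11072 genes. Nearest to *Trpv6* were *Pnp2* (412, 2 and 851 luminal counts), *Sprr2b* (614, 4 and 1326) and *Bcl3* (1485, 122 and 3336). Nearest to *Calb1* were *Thrsp* (8072, 95644 and 13017), *Gstm2* and *Hopx*. By the way they were chosen, the neighbours of *Trpv6* are low in the library labelled eKO and those of *Calb1* high there. Nearest to *S100g* were *Ddit4*, *Tagln* and *Cybb*, to *Atp2b4* *Traf1*, *Bbx* and *Mamdc2*, and to *S100a10* *Slc22a18*, *Wfdc1* and *Hspb11*. For *Atp2b1* they were *Rnf145*, *Fscn1* and *Mettl4*, for *S100a6* *Map7d1*, *Cd74* and *Cpm*, and for *S100a11* *Gm9833*, *Psen2* and *Dgkq*. *S100a8* and *S100a9* lay under the limit of 10 CPM in every library and were not compared. With 6 points of 1 library each, likeness is a description of these libraries.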

How the data were processed

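Libraries were SMART-seq v4 from pooled RNA. The authors aligned paired-end reads to GRCm38/mm10 with HISAT2 and counted them per gene with featureCounts (Subread 2.0.0). The deposited tables, 1 for each tissue, held raw counts of reads for every gene, although the methods describe them as RPKM. The deposited exon length of each gene (bases) was used for CPM per kilobase. Annotation release, strand and multi-mapping settings were not given in the sources used here.

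Genes with at least 10 counts over a tissue's 3 libraries were kept and scaled by TMM (edgeR 4.0.16, R 4.3.3). Intervals of ratios were exact Clopper-Pearson and those of levels exact Poisson, at 95% (SciPy 1.17.1); they cover counting error only, since PCR reads without molecular identifiers are not independent molecules. A fold against 0 counts is a lower bound from a floor of 3 counts in that library. Calls used a log2 limit of 1. The scripts were tested on simulated data. Alternatives were DESeq2 1.42.0 size factors, totals with and without the 20 most abundant genes, no filter or at least 50 counts, a log2 limit of 0, and edgeR's exact test with an assumed dispersion of 0.1 and an FDR of 0.05.

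Members and lists were chosen with earlier results of these data known. All members were named. Other genes named were paralogs of members, up to 4 called genes per role list and comparison with the bound farthest from 0, and the 3 nearest genes per member. *Vdr*, *Cyp24a1* and the marker sums without *Il1b* or *Pdgfra* were chosen after their values were seen. Marker lists held 72 names, of which 70 were found, and 5 genes of the wider list were found under an older symbol. Promoter windows came from RefSeq.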

Additional observations from a re-analysis of the deposited data

Results flagged for a closer look

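Members whose interval lay beyond 0 in opposite directions in the luminal layer and in blastocysts under the same contrast were picked out. There were 13 such pairs of member and contrast, and 6 of them, in 5 genes, had a call in at least 1 tissue. These were 43.3% and 20.0% of the 30 pairs, against 18.0% and 3.91% of the 40968 pairs of gene and contrast over the 13656 genes tested in both tissues. The difference between tissues was not tested, with 1 library per group.

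For eKO against control, *Atp2b4* had a log2 ratio of 1.70 in the luminal layer and -0.95 in blastocysts. *S100a8* was at -0.96 and 2.42, and *S100a9* at -2.36 and 0.62. For eKO with rLif against control, *Calb1* was at 1.14 in the luminal layer and -1.47 in blastocysts, and *S100a6* at 0.59 and -1.40. For eKO with rLif against eKO, *Atp2b4* was at -1.62 and 0.68. The luminal values are by the labels of those libraries. *Atp2b4*, *S100a8* and *S100a9* rested on at most 415 counts in a library. The blastocyst ratio of *Calb1* rested on 18 against 49 counts and was not called, and that of *S100a6* on 82 against 212.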

How the results depend on the processing

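No paired analysis was possible because each group was 1 library, and for the same reason no library could be left out. Between tissues no member count moved by over 1.5 times. Comparisons are listed in the order luminal eKO to control, rLif to control and rLif to eKO, then the same in blastocysts. With a log2 limit of 0, 10, 9, 9, 8, 7 and 8 members were called, and 74, 66, 71, 50, 49 and 51 genes of the wider list. With edgeR's exact test at an assumed dispersion, members called were 1 (luminal rLif to control), 2 (luminal rLif to eKO) and 0, 0 and 1 in blastocysts; wider-list calls were 10, 2, 12, 0, 1 and 1. At least 50 counts left 1 member in blastocyst eKO to control, since *S100a8* fell below the limit, and 3 and 5 wider-list genes in blastocyst eKO to control and rLif to eKO. Totals without the 20 most abundant genes left 7 wider-list genes in luminal rLif to control. Of 63 member counts 51, and of 42 wider-list counts 27, stayed within 1.5 times.

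Scaling by totals moved the median of all genes by -0.18 and -0.11 (rLif to control and to eKO, luminal), -0.23 (rLif, luminal to blastocysts), and without the top 20 by -0.15 in both luminal rLif comparisons; DESeq2 moved luminal eKO to blastocyst eKO by 0.12. *Calb1* in luminal rLif to control lost its call under both totals. Of 270 member ratios under another scaling 52 moved beyond their interval and no called one reversed, while the uncalled luminal *S100a10* ratio of rLif to control (0.05) changed sign under totals. The cause was not tested. Below about 10 counts, as for *S100a8* in blastocysts, depth limits what can be seen.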

Other observations

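In blastocysts 82 genes of the wider calcium list were tested, and 3 were called higher and 2 lower in eKO against control, or 6.10% of the list against 3.15% of all genes. *Atp2c2*, a calcium and manganese pump of the secretory pathway, had 66, 9 and 4 counts (control, eKO, rLif), with ratios to control of -2.91 (-4.10 to -1.90) and -4.07 (-5.99 to -2.65). *Nucb2*, a calcium-binding protein of the Golgi and the source of nesfatin, had 273, 92 and 114 counts, with -1.60 (-1.96 to -1.26) for eKO. With rLif 0 were called higher and 7 lower against control, or 8.54% against 4.94% of all genes. These included *Rcn3*, a calcium-binding protein of the endoplasmic reticulum, with 215, 197 and 60 counts (-1.87), *Pth1r*, the parathyroid hormone receptor, with 744, 602 and 295 (-1.36), and *Anxa4*, with 566 counts against 1387 in control (-1.32). Against eKO, 1 was called higher and 7 lower, or 9.76% against 3.75% of all genes.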
